A study of Mus musculus with 15 samples.

Results

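The genes described here are 38 semaphorins, plexins, neuropilins, netrins, Slits and their receptors, a set known for guiding growing axons. Each gene was represented by the open-chromatin peaks that overlapped its gene body or lay within 20 kb of it. This rule gave 343 peaks of the 67945 in the table, at 35 of the 38 genes, and 316 of them had enough reads to be tested among 59252 tested peaks. No peak was listed for Sema5b, Slit3 or Dcc. The assay was ATAC-seq: a transposase inserts into accessible DNA, and the reads in a peak follow how open it was. Each of the 13 libraries came from 1 clone of mouse pancreatic tumour cells grown under the skin of C57BL/6 mice, with no treatment, and 50000 tumour cells were sorted from the tumours 3 weeks after implantation. Clones are labelled by how many T cells their tumours held: 6 are T cell high (2838c3, 6421c2, 6499c4, 6555c3, 6620c1, 7160c2) and 7 are T cell low (6419c1, 6419c5, 6499c3, 6422c1, 6556c3, 2699c4, 6694c2). The 2 T cell intermediate clones among the 15 listed samples were not analysed here. A group is therefore a set of clones under the skin rather than in the pancreas, and whether tumours were pooled, and which mutations drive the clones, is not given in the sources used here. The comparison asks whether chromatin at these genes differs between tumour cells of T cell high and T cell low tumours.

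Semaphorins are secreted or membrane-bound ligands that mostly repel growing axons, and plexins are their main receptors, with neuropilins as co-receptors for the secreted class 3. Slits act through Robo receptors, and netrins act through DCC for attraction and UNC5 receptors for repulsion. In tumours these genes are also known for effects on tumour cell migration, on nerves and vessels, and on immune cells, and pancreatic cancer is known for frequent alterations of the Slit and Robo genes.

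Total counts in peaks were 968296 to 5936823 (median 2973000) in the T cell high libraries and 1030616 to 7369228 (median 3008000) in the T cell low libraries. The members' peaks held between 0.380% and 0.483% of those counts in every library. Levels are given as CPM, read counts relative to the scaled size of the library. Peaks at genes of epithelial tumour cells (Epcam, Krt8, Krt18, Krt19 and Cdh1, 5 of 5 with a peak) summed to 229 to 375 CPM in T cell high and 218 to 347 CPM in T cell low clones. Of 8 leukocyte genes, 5 had a peak, Cd3e and Cd8a being among those with none, and their sum was 58.1 to 105 CPM (median 90.1) in T cell high and 71.2 to 163 CPM (median 107) in T cell low clones. Endothelial genes (4 of 5 with a peak, without Tie1) summed to 19.3 to 45.8 CPM and 27.8 to 56.6 CPM. Fibroblast and pericyte genes (4 of 6, without Col1a2 and Dcn) summed to 75.6 to 99.3 CPM and 62.8 to 101 CPM, and Schwann cell and neuron genes (5 of 7, without Sox10 and Foxd3) to 76.0 to 90.5 CPM and 72.4 to 109 CPM. The group ranges overlapped for each of these lists. The part of such cells in the results below was not tested.

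The median member with peaks had 10 of them, from 2 at Plxnc1 and Ntn1 to 20 at Plxna4, against a median of 4 over all genes with a peak. These numbers were not set against gene length, which ran from 11.6 kb at Sema3b to 1555.5 kb at Robo2. They therefore do not show a higher density of peaks. Most of the 343 peaks, 209, lay inside the gene, 100 lay in the 20 kb beside it, and 27 lay within 1 kb of a listed transcription start. The other 7 lay within 1 kb of an end of a gene whose start is not in the promoter table. Promoter peaks were the strongest, with a median of 31.1 CPM, against 7.35 CPM inside genes and 8.71 CPM in the flanks. Of the peaks, 97 were also within 20 kb of another protein-coding gene and 43 lay in the body of one, so their signal cannot be given to 1 gene alone. A promoter peak was found at 23 of the 30 members with a listed start. The members without one were the receptors Robo1, Robo2 and Plxnc1 and the ligands Sema3a, Sema6d, Sema5b and Slit3. Robo1 and Robo2, the Slit receptors, had 12 and 10 peaks. At each gene 10 of them lay inside the gene, whose body is 1020 kb long for Robo1 and 1555.5 kb for Robo2.

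Summed over its peaks and given per kb of peak, the level was highest for Plxnb2, a receptor of class 4 semaphorins, at 28.1 ± 3.86 CPM per kb (SD, n = 13). Sema4c, a class 4 ligand, followed at 25.1 ± 5.12 CPM per kb, and Sema3c, a secreted ligand, at 25.0 ± 5.78 CPM per kb. Sema4b, Plxna2 and Slit2 came next, at 23.8, 23.4 and 23.4 CPM per kb. These neighbours in the order differed by less than their spread between clones. The lowest levels were at Plxnc1 (8.54 ± 3.03 CPM per kb), Sema7a (9.11 ± 4.37 CPM per kb) and Sema3d (9.48 ± 3.40 CPM per kb). All 11 Plxnb2 peaks and all 4 Sema4c peaks were within 20 kb of another gene.

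**Figure D1:**
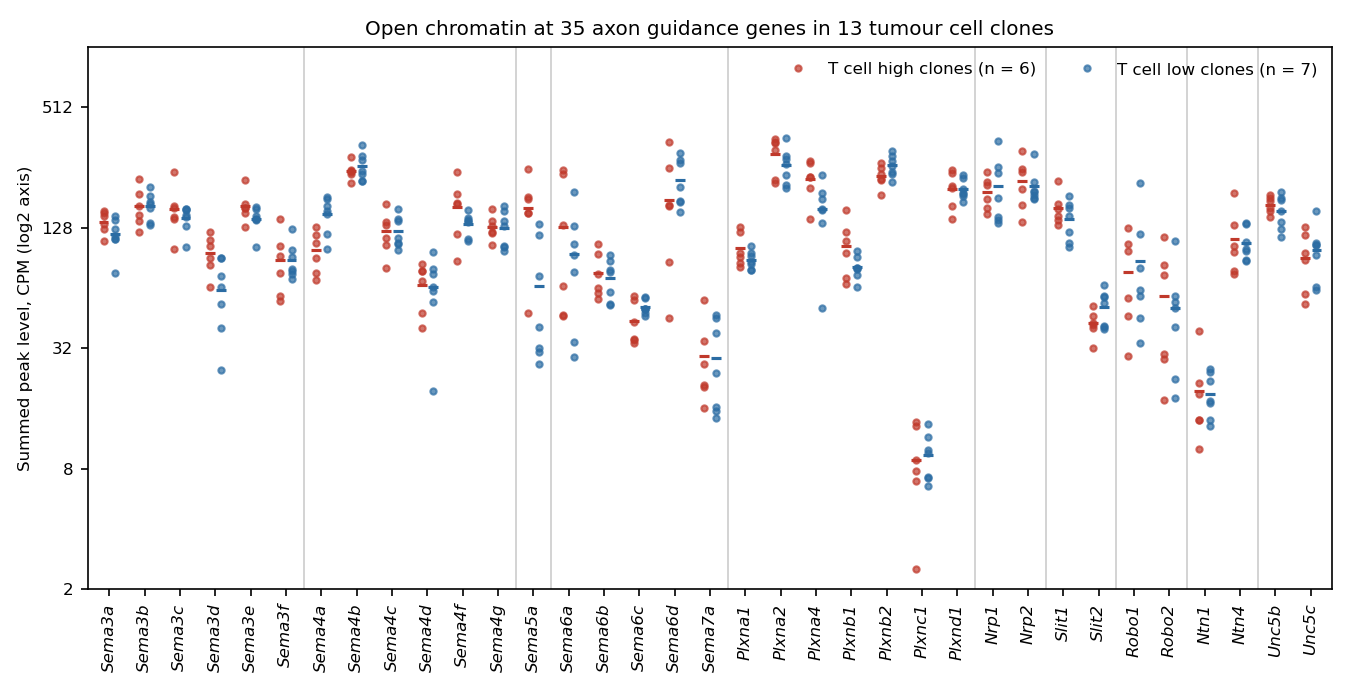
Summed peak level (CPM, log2 axis) of the 35 genes with peaks, in order of role, with 1 point per clone, T cell high (n = 6) in red and T cell low (n = 7) in blue, and a line at each group mean. The groups overlap at every gene, and Sema5a, Sema6a, Robo1 and Robo2 spread over a wide range within each group.

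No member peak passed the test between the groups (edgeR's quasi-likelihood test, Benjamini-Hochberg adjusted p under 0.05): 0 of 316, with a smallest adjusted p of 0.271, where 0.0% of all peaks passed. At an unadjusted p under 0.05, 14 member peaks (4.43%) were higher in T cell high clones, against 3.86% of all peaks, and 8 (2.53%) were lower, against 2.97% of all peaks. Both shares of members were near the background. Of these 22 peaks, 6 were at Sema5a, all of them higher, and 4 at Sema4a, all of them lower. DESeq2 called 2 member peaks, both inside Sema5a, where it called 0.0776% of all peaks, and limma-voom called 0. At an unadjusted p under 0.05, DESeq2 had 22 member peaks of 316, where 7.78% of all peaks were, and limma-voom had 27, where 8.52% of all peaks were. The member peaks had a median log2 fold change (T cell high over T cell low) of 0.11, against 0.01 over all peaks, and 194 of 316 were above 0 (61.4%, against 51.3% of all peaks). These counts depended on single clones. Without 2838c3, 24 member peaks were higher (7.57%, against 5.77% of all peaks), and without 6421c2, 22 were (6.96%, against 4.33%). The number of lower member peaks was 2 without 6419c1, 4 without 6419c5 or 6422c1, and 5 without 6499c4, 6499c3 or 6556c3, while the lower share of all peaks was then between 2.21% and 3.18%.

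Summed per gene, 0 of the 35 members passed (smallest adjusted p 0.490), where 0.0119% of the 16824 genes tested passed, and DESeq2 likewise called 0 members, against 0.0892% of all genes. In all, 4 genes had an unadjusted p under 0.05, the same number by edgeR, DESeq2 (7.13% of all genes) and limma-voom (7.12% of all genes). Sema5a, Sema3d and Plxna4 had the higher mean in T cell high clones (3 members, where 2.82% of all genes were higher at this p), and Sema4a had the lower mean (1 member, where 3.81% of all genes were lower). Of the 35 members, 28 had a log2 fold change between -0.3 and 0.3. The median was 0.04, against -0.03 over all genes, with 23 members above 0 and 12 below, where 44.0% of all genes were above 0. Extra or lost copies of a chromosome region also change its reads, so each fold change was computed a second time with every clone scaled by the median level of the peaks 250 kb to 5 Mb away, called regional scaling here. It left 5 members at an unadjusted p under 0.05, Slit2 being the added one. The share of all genes at this p with regional scaling is not given here, so this count has no background beside it. In a bulk library, fewer cells with an open site and a site less open in each cell cannot be told apart. Each library is a different clone, so a p-value sets the group difference against the spread between clones. The test took all clones as independent, also those whose names share their leading number.

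**Figure D2:**
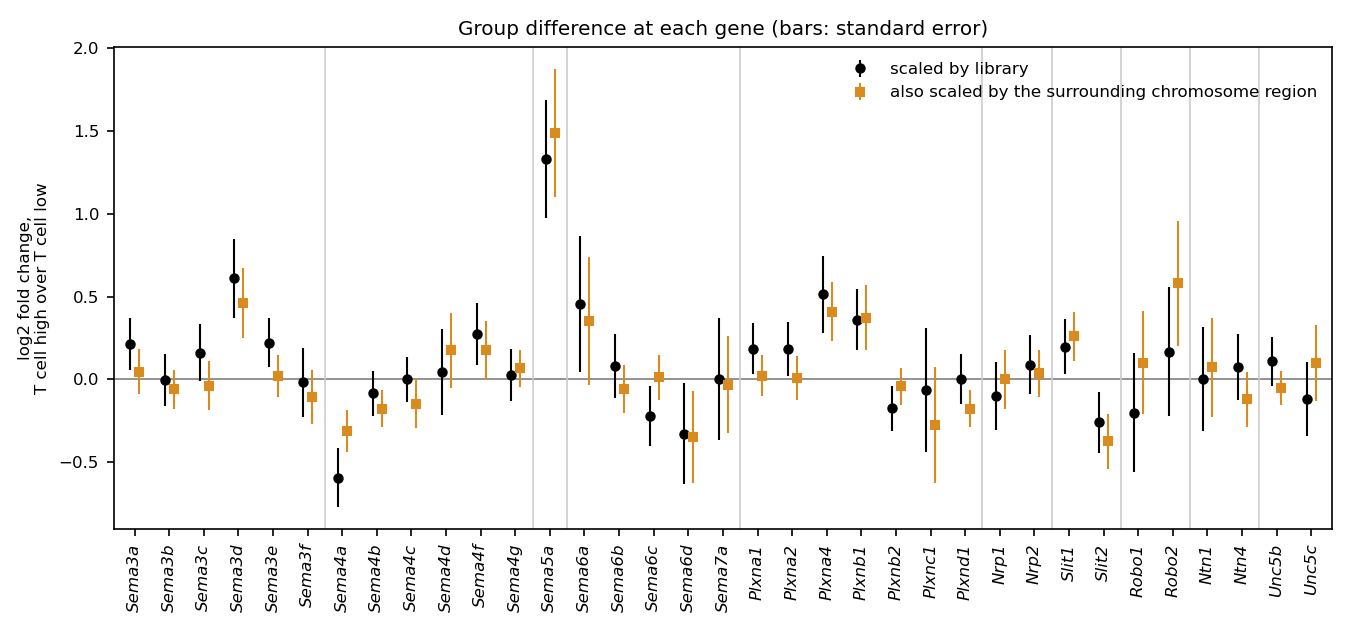
Log2 fold change of the summed counts, T cell high over T cell low, of the 35 genes in order of role, with standard errors, scaled by library (black) and also by the level of the surrounding chromosome region in each clone (orange). Sema5a stands highest at 1.33 and Sema4a lowest at -0.59, and Sema4a moves to -0.31 with the regional scaling.

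Sema5a encodes a membrane-bound semaphorin with thrombospondin repeats in its extracellular part. It lies on chromosome 15 from 32244813 to 32696341 and had 10 peaks: 1 at the promoter, 8 farther inside the gene and 1 in the flank, none of them within 20 kb of another gene. The sequence around its start, which lies under the promoter peak, is shown because this promoter was nearly closed in 1 T cell high clone and in several T cell low clones. It covers chr15:32244563-32244862 on the plus strand (RefSeq, GRCm38.p6, the assembly of mm10), 250 bases before to 50 after the start, with GGGCGG, the core of SP/KLF sites, or its reverse complement in capitals.
Sema5a promoter: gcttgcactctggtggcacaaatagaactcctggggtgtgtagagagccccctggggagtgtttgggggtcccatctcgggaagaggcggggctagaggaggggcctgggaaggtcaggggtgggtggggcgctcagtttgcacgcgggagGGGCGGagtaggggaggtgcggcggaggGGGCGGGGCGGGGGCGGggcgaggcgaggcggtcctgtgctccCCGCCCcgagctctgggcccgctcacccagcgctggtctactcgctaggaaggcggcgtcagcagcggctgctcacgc
This window held 5 GGGCGG matches, some of them overlapping, and 23 CpG. A match is a description of these letters and not a site shown to be bound.

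The summed Sema5a level was 48.1 CPM at the lowest, 165 CPM at the median and 250.2 CPM at the highest among T cell high clones, and 26.5, 40.7 and 134 CPM among T cell low clones. The groups overlapped: T cell high 2838c3 was at 48.1 CPM, whereas T cell low 6419c5 and 6556c3 were at 134 and 117 CPM. The other 5 T cell high clones, at 151 to 250.2 CPM, were above every T cell low clone. The log2 fold change was 1.33 ± 0.36 (SE), with an unadjusted p of 0.00112 and an adjusted p of 0.490. Leaving out 1 clone at a time gave fold changes from 1.15 to 1.62 on the log2 scale. Sema5a's adjusted p by edgeR was then 0.0664 without 2838c3 and 0.194 without 6419c5, but 0.812 without 6499c4. Without 6555c3 it was at least 0.973, the smallest adjusted p of any member in that fit. Scaling also by the surrounding region, whose own level was slightly lower in T cell high clones (-0.14 on the log2 scale), gave 1.49 ± 0.39. Among all 16824 tested genes, those whose pattern over the 13 clones was most like that of Sema5a included Ppfia2 (r = 0.922), Clnk (0.906), Tmem14a (0.869) and Sbspon (0.866), by Pearson's r of log2 CPM, a ranking with no test.

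All 9 tested Sema5a peaks had a log2 fold change above 0, but the order of the clones differed from peak to peak. The peak with the smallest p of all member peaks (chr15:32401821-32402841, 157 kb inside the gene) was at 22.5, 38.3 and 52.9 CPM (lowest, median, highest) in T cell high and at 3.60, 7.48 and 23.7 CPM in T cell low clones. The overlap came from T cell low 6556c3, at 23.7 CPM, which was just above T cell high 2838c3. The log2 fold change was 1.81 ± 0.36 (unadjusted p 5.39e-05, adjusted p 0.271 by edgeR's quasi-likelihood test and 0.00585 by DESeq2). A peak 88.6 kb inside the gene (chr15:32333369-32333809) was the only member peak whose groups did not overlap, with 3.89, 14.1 and 15.5 CPM against 0.0, 1.82 and 3.74 CPM. Its margin was small, since T cell high 7160c2 at 3.89 CPM stood next to T cell low 2699c4 at 3.74 CPM. In 7160c2 this level came from 4 counts, and 3 counts there would be 2.92 CPM. The separation therefore lay within counting error. Of all peaks, 0.0675% did not overlap with T cell high on top and 0.0945% with T cell low on top, and of the members 1 and 0 did. This peak had a log2 fold change of 2.65 ± 0.58, with an adjusted p of 0.343 by edgeR and 0.0145 by DESeq2. In 6694c2 this peak had 0 counts, which allows a level of up to 1.81 CPM by counting error.

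The peak 287 kb inside Sema5a (chr15:32531586-32532640) was at 0.517, 17.8 and 33.6 CPM in T cell high and at 0.603, 3.62 and 6.38 CPM in T cell low clones. T cell high 2838c3, with 2 counts, was the lowest of all 13 clones there, and the other 5 T cell high clones were all above the T cell low clones. The log2 fold change was 2.23 ± 0.55 (edgeR's adjusted p 0.482). The peak 77.7 kb inside (chr15:32322544-32323480) was at 10.1, 20.7 and 24.2 CPM against 3.02, 6.41 and 16.1 CPM, with a log2 fold change of 1.30 ± 0.39 (edgeR's adjusted p 0.582). There 2838c3 was again the lowest of the T cell high clones, below 6419c5 and 6556c3 of the T cell low group. The promoter peak (chr15:32244100-32245372) was at 0.517, 43.1 and 68.4 CPM against 3.40, 11.6 and 31.9 CPM. In 2838c3 it held 2 counts, while the peak 157 kb inside held 87 counts in that clone, so an open distal peak and a nearly closed promoter were seen together. Without 2838c3, 2 of the Sema5a peaks passed edgeR's test, those 157 kb (adjusted p 0.0441) and 287 kb inside (adjusted p 0.0150), among 42 peaks that then passed in the whole table. Leaving out any other single clone gave 0 called member peaks. The smallest adjusted p of a member peak by edgeR then ran from 0.172 without 6419c5 to 0.855 without 6555c3. The 3 Sema5a peaks with an unadjusted p of at least 0.05 were the flank peak 11.7 kb before the start and those 1.0 and 102 kb inside, and the remaining peak had too few reads to be tested.

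**Figure D3:**
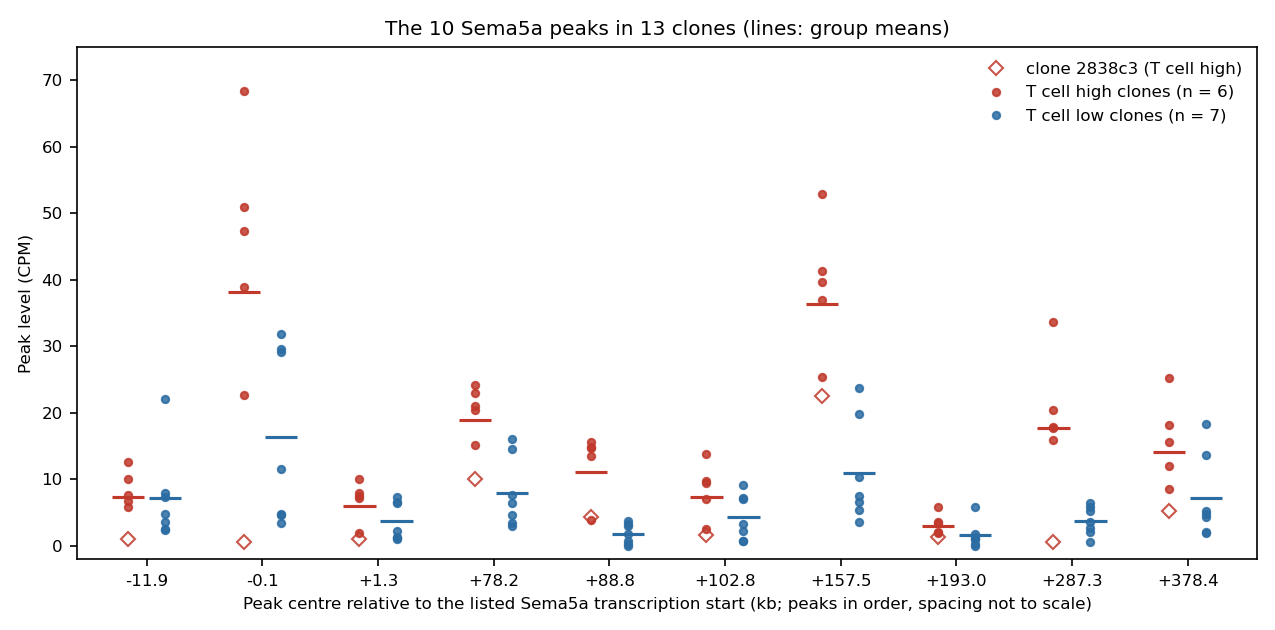
Level (CPM) of the 10 Sema5a peaks, ordered by the distance of the peak centre from the transcription start (kb), with 1 point per clone, T cell high in red and T cell low in blue, lines at group means, and clone 2838c3 as open diamonds. Clone 2838c3 is at 0.517 CPM at the promoter and at the peak 287 kb inside, yet at 22.5 CPM at the peak 157 kb inside.

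Sema4a, a membrane-bound class 4 semaphorin known for its role in priming T cells and as a plexin ligand, had the lower mean in T cell high clones. Its summed level was 70.4, 99.2 and 129 CPM (lowest, median, highest) in T cell high and 100.3, 155 and 181 CPM in T cell low clones. The groups overlapped. Its log2 fold change was -0.59 ± 0.18 (unadjusted p 0.00278, edgeR's adjusted p 0.571). The surrounding region was itself lower in T cell high clones (-0.31 on the log2 scale), the largest such difference among the 35 members, and scaling by it gave -0.31 ± 0.13 with an unadjusted p of 0.0230. The leukocyte genes given above also had the higher median sum in T cell low clones, 107 against 90.1 CPM, and the part of leukocytes in the Sema4a values was not tested. Of its 14 peaks, 10 were within 20 kb of another gene.

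The promoter peak of Sema4a (chr3:88454817-88456905) was at 7.17, 15.3 and 19.1 CPM in T cell high and at 14.6, 28.5 and 43.7 CPM in T cell low clones. Only 2699c4 of the T cell low clones, at 14.6 CPM, lay within the T cell high range. The log2 fold change was -0.97 ± 0.28 (edgeR's adjusted p 0.571), and -0.65 with regional scaling. A flank peak (chr3:88465143-88465648), within 20 kb of Lmna, had a log2 fold change of -1.26 ± 0.48. Sema4a has 4 listed starts, and the window of 1 of them lay under a listed peak, the promoter peak above. Its sequence is shown because it is the start under that peak (chr3:88455712-88456011, minus strand, GGGCGG or its reverse complement in capitals).
Sema4a open promoter: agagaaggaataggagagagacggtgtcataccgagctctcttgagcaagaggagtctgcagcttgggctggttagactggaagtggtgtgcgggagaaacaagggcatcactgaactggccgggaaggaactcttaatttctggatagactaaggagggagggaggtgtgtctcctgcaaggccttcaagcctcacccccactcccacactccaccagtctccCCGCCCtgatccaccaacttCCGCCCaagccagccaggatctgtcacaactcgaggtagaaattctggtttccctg
It held 7 CpG and 2 GGGCGG matches.

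Sema3d, a secreted class 3 semaphorin, was at 64.9, 96.9 and 122 CPM in T cell high and at 24.9, 64.7 and 90.7 CPM in T cell low clones. The ranges overlapped, and T cell low 6499c3 was the lowest of all clones. Sema3d had a log2 fold change of 0.61 ± 0.24 (unadjusted p 0.0181, edgeR's adjusted p 0.717), and 0.46 ± 0.21 with regional scaling. Its peak of smallest p, 27.9 kb inside the gene (chr5:12411081-12412026), was at 1.55, 10.8 and 18.5 CPM against 0.0, 2.65 and 7.48 CPM, with a log2 fold change of 1.56 ± 0.56. Plxna4, a plexin that serves as receptor for Sema3a with neuropilin 1 and for class 6 semaphorins, was at 141, 229 and 276 CPM in T cell high and at 51.0, 158 and 234 CPM in T cell low clones. Here too 6499c3 was the lowest clone, and the ranges overlapped. For Plxna4 the log2 fold change was 0.51 ± 0.23 (unadjusted p 0.0365, edgeR's adjusted p 0.717), and 0.41 ± 0.18 with regional scaling. The unadjusted p of Plxna4 was over 0.05 when any of 7 clones was left out, and that of Sema3d when 7160c2 was.

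The remaining ligands had smaller differences. Sema3c, which signals through plexin D1 and neuropilins, was at 100.3, 152 and 244 CPM in T cell high and at 103, 148 and 159 CPM in T cell low clones, with a log2 fold change of 0.16 ± 0.17 that was -0.04 with regional scaling. Sema4c, a ligand of plexin B2, was at 80.8, 123 and 169 CPM against 99.3, 113 and 158 CPM, and its log2 fold change was 0.00 ± 0.14. Among class 6, Sema6b was at 56.1, 69.5 and 106 CPM against 52.4, 76.8 and 93.1 CPM (log2 fold change 0.08 ± 0.19, and -0.06 with regional scaling). Sema6c had a log2 fold change of -0.22 ± 0.18, which was 0.01 with regional scaling. None of these 4 differences exceeded the spread between clones. By class, the numbers of members above and below 0 were 4 and 2 for class 3, 4 and 2 for class 4, and 3 and 2 for classes 6 and 7. Of all genes, 44.0% were above 0.

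Slit2, the Slit ligand with the highest CPM per kb of peak, was at 32.1, 42.2 and 51.9 CPM in T cell high and at 39.8, 53.7 and 66.3 CPM in T cell low clones. Its log2 fold change was -0.26 ± 0.19 (unadjusted p 0.173) and -0.38 with regional scaling (unadjusted p 0.0352). Its promoter peak was at 17.5 to 44.5 CPM in T cell high and 31.97 to 51.4 CPM in T cell low clones. Ntn1, the netrin bound by DCC and UNC5 receptors, was at 10.1, 16.4 and 38.9 CPM against 13.1, 17.5 and 25.2 CPM, with a log2 fold change of 0.00 ± 0.31. Ntn4, a netrin of basement membranes, had a log2 fold change of 0.07 ± 0.20, and -0.12 with regional scaling.

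Among the receptors, Plxnb2 was at 186, 230.1 and 269.9 CPM in T cell high and at 216, 259 and 310.2 CPM in T cell low clones (log2 fold change -0.17 ± 0.14, and -0.04 with regional scaling). Nrp2, co-receptor for Sema3f and for vascular growth factors, was at 137, 221 and 309.7 CPM against 178, 192 and 299 CPM (log2 fold change 0.09 ± 0.18). Robo1 was at 29.1, 77.4 and 127.5 CPM against 34.0, 62.3 and 215 CPM, with a log2 fold change of -0.20 ± 0.36 that was 0.10 with regional scaling. Unc5b, a netrin receptor of the repulsive kind, was at 145, 168 and 187 CPM against 115, 156 and 192 CPM (log2 fold change 0.11 ± 0.15, and -0.05 with regional scaling). For each of these receptors the groups overlapped over most of their range.

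Single peaks at other members are given here because they had among the smallest p of the tested member peaks. Peaks picked in this way cannot show that single peaks differed more than the sums of their genes. A peak 8.1 kb beside Sema4d (chr13:51676637-51677456), which lies in the body of Secisbp2, had a log2 fold change of -1.66 ± 0.54. A peak 11.4 kb beside Ntn4 (chr10:93757397-93758418) had 1.07 ± 0.36, at 6.80 to 16.02 CPM in T cell high and 3.02 to 9.66 CPM in T cell low clones. A peak inside Sema6a on chromosome 18 had 1.57 ± 0.61, and 1 inside Sema4g, which is near Mrpl43, Slf2 and Twnk, had 1.08 ± 0.46. A peak inside Slit1 had 0.96 ± 0.41, but 0.59 (unadjusted p 0.162) without 6555c3, its highest clone. None of these passed edgeR's test, with adjusted p between 0.586 and 0.701.

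Several members varied widely between single clones, also within a group. The SD of the log2 level over the 13 clones was largest for Sema5a (1.13), Sema6a (1.02), Robo2 (0.92), Robo1 (0.82) and Sema6d (0.79), genes picked here because their spread was high, and each was above that of 90% of all genes. The median over the 35 members, 0.36, was the same to 2 decimals as over all genes, 0.36. Sema4b (0.19) and Plxnb2 (0.20) were the steadiest members. Sema6d, a ligand of plexin A1, ran from 45.4 CPM in 6421c2 to 344 CPM in 2838c3, both T cell high clones. A peak inside Sema6d 42.5 kb from the nearest listed start was at 2.42 to 78.0 CPM (median 27.5) in T cell high clones, with 6421c2 lowest and 2838c3 highest, and at 41.6 to 65.6 CPM in T cell low clones. Sema6a, a ligand of plexins A2 and A4, ran from 28.8 CPM in 6499c3 to 249.7 CPM in 6555c3, and its peak at the gene end from 7.85 to 132 CPM. Robo1 was highest in 6419c5 (215 CPM) and lowest in 6620c1 (29.1 CPM), and Robo2 was highest in 7160c2 (115 CPM) and lowest in 2838c3 (17.6 CPM).

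**Figure D4:**
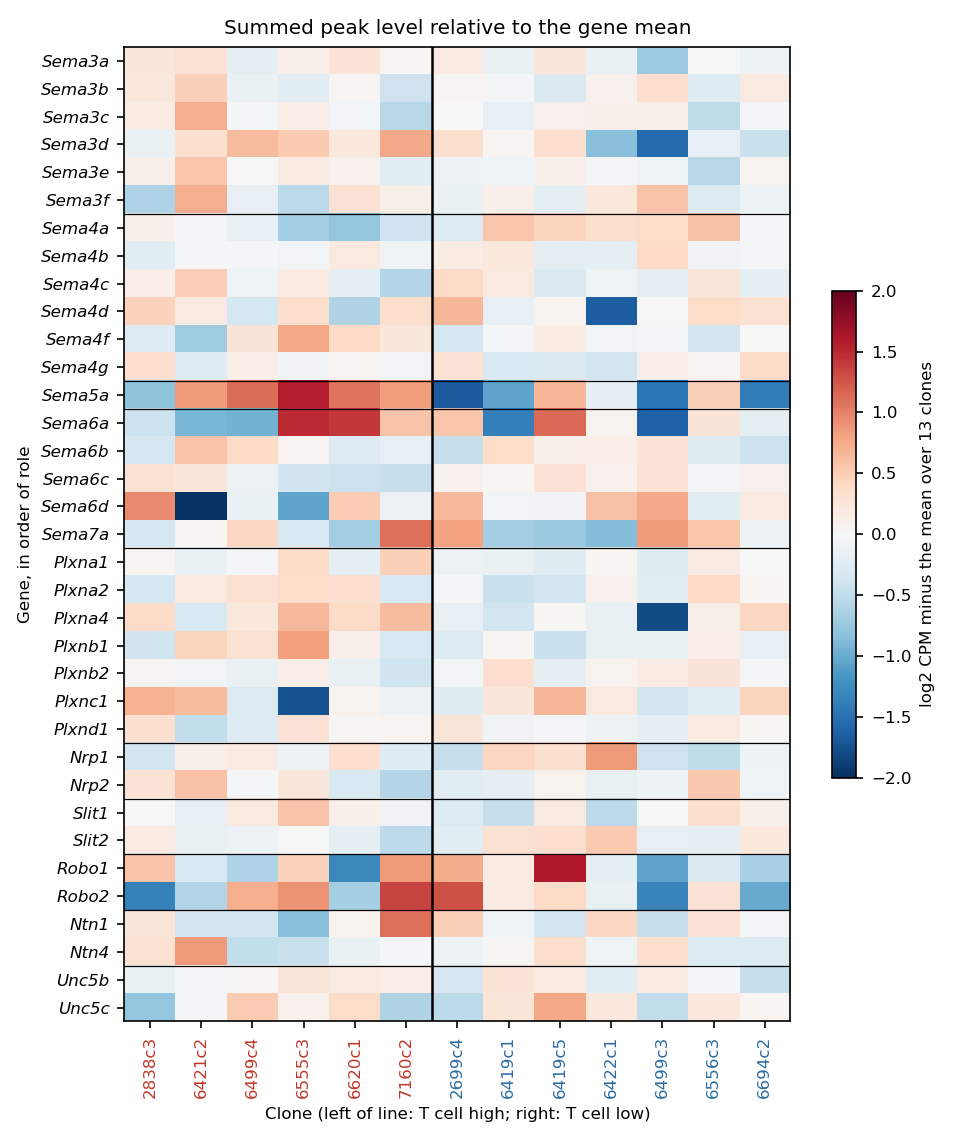
Summed level of the 35 genes in each clone as log2 CPM minus the gene's mean over the 13 clones, red above and blue below the mean, with T cell high clones left of the vertical line. Sema5a is above its mean in every T cell high clone but 2838c3 and also in T cell low 6419c5 and 6556c3, and Sema6a, Sema6d, Robo1 and Robo2 likewise have clones above and below the mean in both groups.

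Clones whose names share their leading number also differed at these genes. Of T cell low 6419c5 and 6419c1, the former was more than 2-fold higher at 3 of 35 members: Sema6a (5.63-fold), Sema5a (3.30-fold) and Robo1 (2.67-fold). Of 6499c4 (T cell high) and 6499c3 (T cell low), the former was more than 2-fold higher at 5 of 35: Sema5a (5.92-fold), Sema3d (4.48-fold), Robo2 (4.15-fold), Plxna4 (3.98-fold) and Unc5c, which was just over 2-fold. No member was more than 2-fold lower in either pair, and the median ratio over the members was 1.04 and 1.06. That clones with a shared number come from 1 tumour is read from their names only. Each pair is 1 library against 1 library and has no replicate check. The share of all genes more than 2-fold apart in these pairs is not given here. The counts are therefore no trait of these members.

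The promoter peak of Sema4f, a class 4 semaphorin, showed the same kind of near closure as that of Sema5a and is described here because of it. It was at 1.51 and 2.07 CPM in T cell high 6421c2 and 2838c3 and at 17.7 to 36.9 CPM in the other T cell high clones, and at 1.36 to 19.5 CPM in T cell low clones, with 2699c4 lowest. Over the same clones a peak 30.0 kb from this start stayed between 41.9 and 72.6 CPM. The window is chr6:82939720-82940019 on the minus strand, with CCAAT, the NF-Y core, or its reverse complement in capitals.
Sema4f promoter: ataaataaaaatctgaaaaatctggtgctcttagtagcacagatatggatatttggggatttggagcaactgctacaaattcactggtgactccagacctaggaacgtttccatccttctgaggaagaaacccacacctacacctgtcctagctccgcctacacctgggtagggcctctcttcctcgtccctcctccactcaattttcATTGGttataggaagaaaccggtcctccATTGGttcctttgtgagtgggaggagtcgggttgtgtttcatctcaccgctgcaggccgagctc
It held 7 CpG, 2 CCAAT matches and no GGGCGG. A contrast is the window of Slit3 (chr11:35121206-35121505, plus strand), which had no peak in the table although it was among the richest in CpG (41) and held 6 GGGCGG matches, in capitals.
Slit3 promoter: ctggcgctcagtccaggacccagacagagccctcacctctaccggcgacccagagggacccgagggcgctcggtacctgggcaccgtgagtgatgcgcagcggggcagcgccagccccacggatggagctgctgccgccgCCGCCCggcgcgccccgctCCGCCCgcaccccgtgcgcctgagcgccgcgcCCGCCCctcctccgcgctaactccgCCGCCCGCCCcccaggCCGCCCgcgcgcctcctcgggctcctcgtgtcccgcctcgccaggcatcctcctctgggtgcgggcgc
No peak in the table says only that the site was not among the merged peaks.

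Promoter windows were found in the RefSeq table for 30 of the 38 members, 43 windows in all. A peak lay over 26 of them (60.5%), against 41.6% of the 32851 windows in the table. Those windows belong to 27025 genes, more than the 21887 protein-coding genes linked to peaks, whereas all members are protein-coding. The shares of all windows given here are therefore not a matched background for the members. GGGCGG, on either strand, was in 67.4% of member windows and in 35.7% of all windows. Among windows under a peak it was in 88.5% of the members' and 64.2% of all. CCAAT was in 16.3% of member windows and 37.4% of all, and TGANTCA, the AP-1 motif, was in 6.98% and 7.81%. CACGTG, the E-box, was in 9.30% of member windows and 7.15% of all, CCGGAAG (ETS) in 2.33% and 8.86%, and GGAATG (TEAD) in 9.30% and 14.7%. The median observed over expected CpG of member windows was 0.725 under a peak and 0.447 without one, against 0.767 and 0.221 over all windows. These shares describe the letters of the windows, and several windows belong to 1 gene.

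No gene on 4 lists of other guidance genes passed the test between the groups either. Of 13 other semaphorins, plexins and partners, 10 were measured and 0 passed edgeR's test. At an unadjusted p under 0.05, Kdr, a vascular growth factor receptor, which is also in the endothelial list above, had a log2 fold change of 0.72 ± 0.32 and Plxdc1 one of -0.42 ± 0.19. With regional scaling these were 0.56 and -0.23, with unadjusted p of 0.0930 and 0.149. Of 18 other netrin, Slit and repulsive guidance genes, 15 were measured and 0 passed. There Rgma, a repulsive ligand of neogenin, had 0.90 ± 0.28, which was 0.42 with regional scaling (unadjusted p 0.0882). Flrt1 had -0.81 ± 0.28, which was -0.74 with regional scaling (unadjusted p 0.0103). Of 21 ephrins and Eph receptors, 17 were measured and 0 passed, with Epha4 at 0.46 ± 0.18 and Efna1 at -0.42 ± 0.20. With regional scaling Epha4 was 0.30 (unadjusted p 0.0392) and Efna1 -0.15 (unadjusted p 0.254). Epha7 was -0.20 ± 0.16 (unadjusted p 0.242), and -0.51 with regional scaling (unadjusted p 0.00788). Of 36 intracellular effectors, 35 were measured and 0 passed, and only Rnd1, a GTPase that binds plexins, had an unadjusted p under 0.05, with -0.40 ± 0.19 (-0.30 with regional scaling, unadjusted p 0.0644). DESeq2 and limma-voom also called 0 of the 77 genes measured in these lists, with 9 and 8 of them at an unadjusted p under 0.05, where 7.13% and 7.12% of all genes were. The median log2 fold changes of the 4 lists were -0.11, -0.04, -0.06 and 0.01, against -0.03 over all genes.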

How the data were processed

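The authors deposited raw read counts per merged peak, whole numbers for 13 libraries, made by featureCounts 1.5.3 per the file headers. The build was mm10 and DESeq2 was used, per the submitters' processing notes. The sources used here name no aligner, peak caller or offset correction. Both ends of a fragment can count, so intervals cover counting error only.

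Peaks were linked to protein-coding gene bodies (RefSeq, GRCm38.p6) within 20 kb, and a peak near several genes counted for each. The groups were compared in R 4.3.3 with edgeR 4.0.16: filterByExpr by group, TMM scaling, a two-sided quasi-likelihood F-test, and Benjamini-Hochberg adjustment over all peaks or genes at 0.05. DESeq2 1.42.0 and voom of limma 3.58.1 were alternatives. The SE is the size of the log2 fold change divided by the square root of F. The log2 CPM used a prior count of 2. Regional scaling used the median of peaks 250 kb to 5 Mb away, or the whole chromosome where these were fewer than 20. Scripts were tested on simulated data. Replicate numbers follow accession order. Fold changes are given for genes with an unadjusted p under 0.05, the 12 member peaks of smallest p, and in each role class the genes of smallest p and of highest CPM per kb. Members and lists were chosen with earlier results of these data known.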

Additional observations from a re-analysis of the deposited data

Results flagged for a closer look

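Of 94 groups of clones checked, 5 held a clone set apart from the others by Dixon's 95% criterion, where chance flags about 1 in 20 groups. Sema3e summed to 102 CPM in T cell low 6556c3, with the other T cell low clones at 139.8 to 162 CPM. Nrp2 summed to 299 CPM in the same clone, with the others at 178 to 216 CPM. The Sema4a promoter peak was at 7.17 CPM in T cell high 6620c1, with the others at 14.7 to 19.1 CPM. The Slit1 peak described above was at 35.3 CPM in T cell high 6555c3 (others 9.30 to 17.5 CPM) and at 21.1 CPM in T cell low 6694c2 (others 3.76 to 10.8 CPM). Clone 6556c3 had 1030616 counts, the smallest total of its group.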

How the results depend on the processing

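No paired analysis was possible because the labels give the clones no replicate numbers that groups share. Sema5a, Sema3d and Plxna4 stayed above 0 and Sema4a below 0 under each of the 23 alternatives run for summed genes, with Sema4a at -0.31 under regional scaling. DESeq2 called 46 peaks and 2 member peaks, and leaving out 1 clone gave 0 to 42 called peaks and 0 to 2 called member peaks. Leaving out 1 clone gave 10 to 24 higher and 2 to 11 lower member peaks, and summing 6419c1 with 6419c5 gave 4 lower. Genes called numbered 1 by total counts, regional scaling, summed sister clones, gene bodies only, a 50 kb window or unshared peaks, 15 by DESeq2, 0 by limma-voom and 0 to 13 without 1 clone. Lower members numbered 2 with regional scaling, for which no share of all genes is given here. They numbered 1 to 2 without 1 clone, where 2.68% to 6.87% of all genes were lower. Signs turned where folds were near 0. Sema4c was -0.0051 with DESeq2 size factors, -0.012 with total counts, -0.0044 by DESeq2, -0.15 with regional scaling, -0.040 with summed sisters, -0.19 in gene bodies, -0.037 at 50 kb and -0.11 to 0.079 without 1 clone. Ntn1 was -0.0060 by DESeq2, -0.17 by limma-voom, -0.056 with summed sisters, -0.0020 in gene bodies, -0.028 at 50 kb and -0.28 to 0.12 without 1 clone. With regional scaling Ntn4 was -0.12, Robo1 0.10, Sema3c -0.038, Sema6b -0.060, Sema6c 0.011 and Unc5b -0.052. In gene bodies Ntn4 was -0.080, Sema3c -0.024 and Sema6b -0.16, and with summed sisters Robo1 was 0.076. Without 1 clone Ntn4 ran from -0.15 to 0.17, Robo1 from -0.40 to 0.19, Sema3c from -0.0020 to 0.25, Sema6b from -0.039 to 0.16 and Nrp2 from -0.038 to 0.19. Slit2 was -0.12 at 50 kb. The cause of these turns was not tested. Weak peaks held few counts in the smallest libraries, so 0 counts in 6694c2 still allow a level of up to 1.81 CPM.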
